A study of Mus musculus with 12 samples.

Results

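The proteasome genes described here are the 37 genes of the 15391 in the count table whose mouse symbol begins with Psma, Psmb, Psmc or Psmd and a digit, with no pseudogene among them. The RNA came from cultured neurons of adult mouse dorsal root ganglia, infected with a control virus or with a virus carrying a short hairpin against Larp1 (shLarp1). Of the 37, 17 encode the core particle (Psma and Psmb) and 20 the regulatory particle and its assembly factors (Psmc and Psmd), and all 37 passed the filter on low counts. Psmc3ip fits the same letters but encodes the meiotic recombination factor HOP2, not a subunit, and was left out. Psma8 and Psmb11, the testis and thymus forms, were not analysed here.

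All 4 groups shared the genotype RPL22HA+/+;Advillin-Cre+ and the treatment labelled Preconditioned, a sciatic nerve injury given to the mice before the neurons were cultured. In these RiboTag mice Cre driven by the Advillin promoter, which is active in sensory neurons, switches on an HA tag on the ribosomal protein Rpl22. An anti-HA immunoprecipitate (IP) therefore collects ribosome-bound RNA of the tagged cells, and the input is RNA of the whole lysate. IP and input were sequenced for each virus, which gave 4 groups with 3 columns of counts in each. The labels word the control virus as AAV-Control for the IP and AAV-shControl for the input. They say adult but give no age in weeks, number of animals or pooling, and their extraction text speaks of fresh ganglia where the source is cultured neurons.

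The proteasome degrades proteins marked with ubiquitin. Its core is a barrel of alpha rings, which gate the entrance, around beta rings, in which Psmb5, Psmb6 and Psmb7 carry the proteolytic sites. The regulatory particle caps the barrel: a base with the ATPases Psmc1 to Psmc6 unfolds the substrate, and a lid with the deubiquitinase Psmd14 removes the ubiquitin chain. Subunits are made in matched amounts, and in mammalian cells the transcription factor Nfe2l1 raises their genes together when the proteasome is inhibited. In neurons proteasomes also act in axons and at synapses. Larp1 binds mRNAs of ribosomal proteins and translation factors that begin with a terminal oligopyrimidine tract.

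Counts per column were 3126591 to 3177552 in the IP and 564095 to 760140 in the input, so input values carry the wider error. Within each group the 3 columns differed by little more than counting noise: per gene, the chi-square between columns had a median of 1.46 to 1.53 where counting alone gives 1.39. No label names separate cultures or animals for them, so the 3 columns were summed and counted as 1 sample (n = 1 per group). Each log2 ratio compares TMM-scaled summed counts and carries, in square brackets, a 95% interval that covers counting error only. Calls of higher or lower required this whole interval to lie beyond 1.5-fold. Where values of 3 columns are set against 3 others of the same fraction, the control virus comes first. The targeted gene Larp1 fell in the IP, from 442 to 149 counts (log2 ratio -1.72 [-1.998 to -1.45]). In the input it went from 18 to 8 counts and was not called (-1.37 [-2.78 to -0.09]).

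Sensory neuron markers were present, with all 12 of the list in the table, and their summed level was 6811 to 7283 scaled CPM (counts scaled by TMM to a common library size) in IP columns against 1745 to 2905 in input columns. The summed log2 ratio of shLarp1 over control was 0.08 in the IP and -0.68 in the input. For Schwann and satellite glia (9 of 10 markers in the table) these values were -0.10 and 0.05, and for macrophages and other leukocytes (9 of 10) 0.05 and -0.49. Fibroblast markers (7 of 8) gave 0.43 and -0.23; Lum had no count in the control input and Pdgfra none in the shLarp1 input. The 4 endothelial markers summed to 52 and 63 counts in the IP groups and 13 and 5 in the inputs, with Pecam1 at 0 in the shLarp1 input. Summed IP over input, control virus first, was 1.26 and 2.02 for neuron markers and -0.21 and -0.37 for glia. For fibroblast markers it was -0.77 and -0.11, and for leukocyte markers -1.02 and -0.48. The IP thus also held RNA of markers of other cell types.

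Proteasome promoters can hold an antioxidant response element, the motif that Nfe2l1 binds, and its core TGACNNNGC was looked for on both strands of RefSeq promoter windows (assembly GRCm38.p6, 250 bases before to 50 after the start). No other motif was searched. Of the 31 subunit genes with a window, 5 held a match (16.1%), against 3781 of 27025 genes with a window (14.0%): 2 of 14 core genes and 3 of 17 regulatory genes. The matches are printed because they include the catalytic subunits Psmb5 and Psmb6 and the ATPase Psmc6, which had the lowest input ratio among regulatory members. Each is read along the gene, with the motif or its reverse complement in capitals.
Psmb5: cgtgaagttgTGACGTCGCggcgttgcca
Psmb6: ctaaagagagTGACGGAGCgctttacgac
Psmd9: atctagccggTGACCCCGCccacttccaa
Psmc6: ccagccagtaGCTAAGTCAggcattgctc
Psmd12: tctGCTGTGTCAcatttgcccc

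They lie at chr14:54618024-54618052 (Psmb5, minus strand), chr11:70525338-70525366 (Psmb6), chr5:123228149-123228177 (Psmd9), chr14:45329587-45329615 (Psmc6) and chr11:107479278-107479299 (Psmd12), the last 4 on the plus strand. The first capital stands 47, 9, 31, 227 and 247 bases before the gene start, in that order, so 3 matches are close to it. A match is a description of these letters and not a shown binding site. Psmb1, Psmb2, Psmb7, Psmc3, Psmd3 and Psmd7 had no window in the table.

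In the IP the ratio of shLarp1 over control was slightly higher for mRNA of the core particle than for that of the regulatory particle, and no subunit passed the 1.5-fold rule in either direction. Over all genes 0.719% were called higher and 4.4% lower. A narrower set leaves out genes with a mean log2 IP-to-input ratio below -2 and genes without input counts. Of its 6807 tested genes 48 were called higher and 89 lower. The only member it leaves out is Psmd5. Core subunits summed to 54367 counts with the control virus and 64929 with shLarp1, a log2 ratio of 0.10 [0.09 to 0.12]. Regulatory subunits summed to 16654 and 18259 counts, a ratio of -0.02 [-0.05 to 0.01]. The median gene stood at -0.08. The core ratio minus the regulatory ratio was 0.12 [0.09 to 0.16], a difference that no scaling of the libraries can move.

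Below the 1.5-fold size, 9 core members had intervals wholly above 0 and none wholly below, where 13.4% of all genes lay above and 29.6% below. Of the narrower set of 6807 genes 1083 lay above and 1297 below. These shares are not matched for depth. All 37 members had at least 30 summed counts in each IP group, as did 10084 genes in the control IP and 10154 in the shLarp1 IP. Of the regulatory members 2 lay above 0 (Psmd6 and Psmd8) and 4 below (Psmc3, Psmc5, Psmd1 and Psmd5), but with total counts or upper-quartile factors 7 lay above and 1 below. The core's 9 above went up to 12 with those 2 scalings, where 25.6% and 25.4% of all genes lay above and 20.8% and 20.9% below. The number of core members with a ratio above 0 was 13 of 17 and went from 13 to 15 over the 5 scalings run. For the regulatory particle it was 9 of 20 and went from 9 to 15, so its direction depended on the scaling. Column by column, 11 core members did not overlap between the viruses, all higher after shLarp1, against 14.4% of all genes higher and 28.8% lower. Among regulatory members 1 was higher (Psmd6) and 4 were lower without overlap. Fibroblast markers were also higher in the shLarp1 IP (316 to 330 against 240 to 244 scaled CPM), and their part in the core's ratio was not tested.

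**Figure D1:**
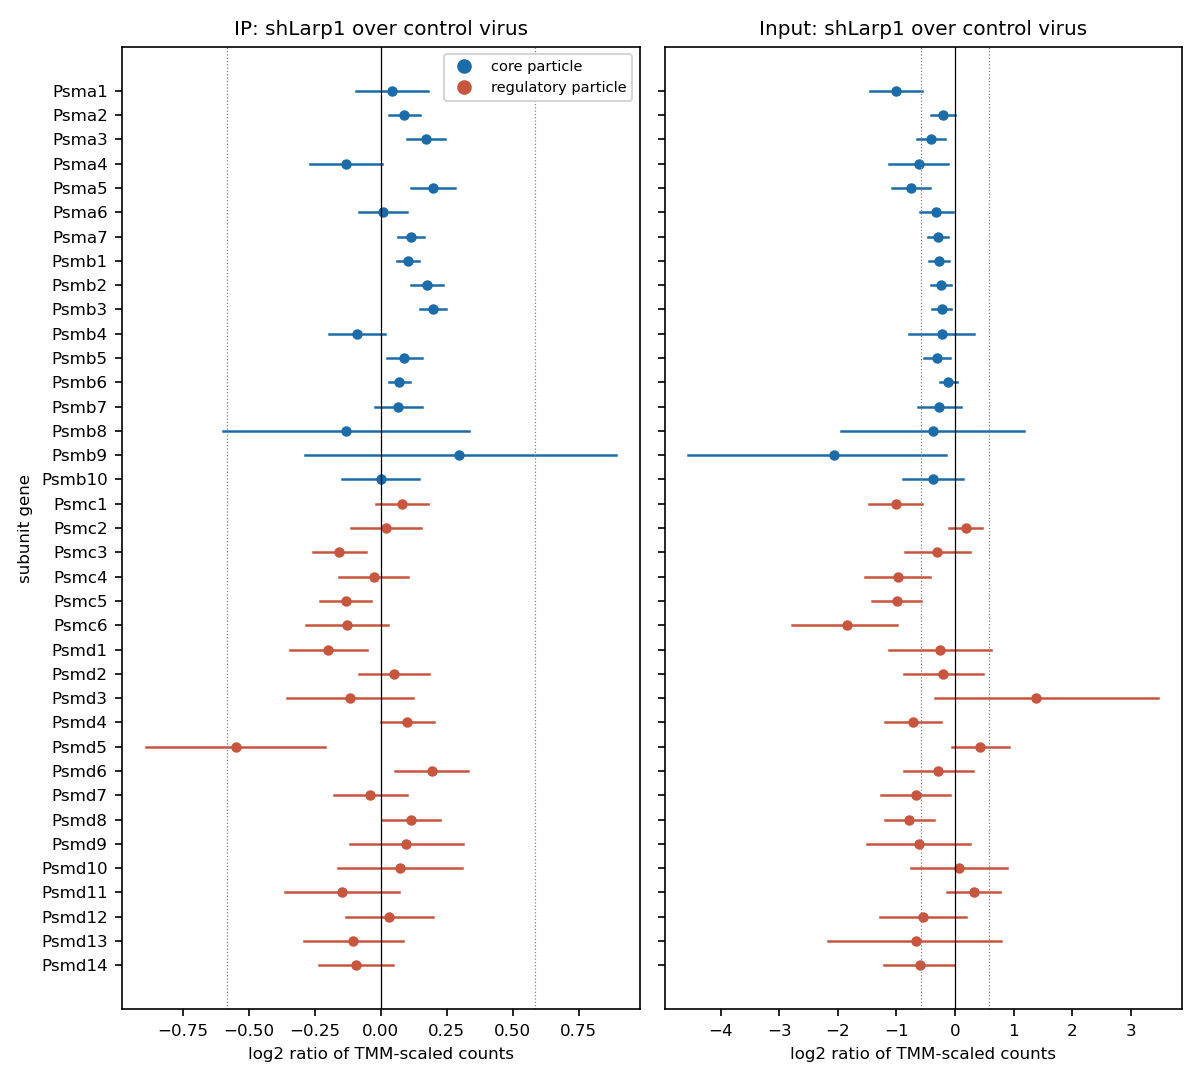
Log2 ratio of shLarp1 over control virus for each subunit gene in the IP (left) and the input (right), with 95% counting intervals; blue marks the core and red the regulatory particle. The horizontal scales differ between the panels, and dotted lines mark 1.5-fold; only Psmc6 in the input, at -1.85, has an interval wholly beyond them.

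The alpha ring held 4 of the core members above 0: Psma5 at 0.20 [0.11 to 0.28], Psma3 at 0.17, Psma7 at 0.11 and Psma2 at 0.09. Psma1 and Psma6 were at 0.04 and 0.01. Psma4 was the only alpha member with a ratio below 0, at -0.13 [-0.27 to 0.01], and its columns overlapped. In the beta ring 5 of 7 lay above 0, with Psmb3 at 0.20 [0.15 to 0.25] and Psmb2 at 0.17. Alpha ring minus beta ring was -0.01 [-0.04 to 0.03], an interval that held 0.

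The catalytic subunits lay close to 0. Psmb5, the chymotrypsin-like site, stood at 253, 257 and 268 scaled CPM in the control IP columns and at 278, 271 and 278 in the shLarp1 IP columns. All 3 shLarp1 columns lay above the control columns, and the log2 ratio was 0.09 [0.02 to 0.16]. Psmb6, the caspase-like site, had 708, 736 and 719 scaled CPM in the control IP and 753, 738 and 781 in the shLarp1 IP, again without overlap, and a ratio of 0.07 [0.03 to 0.11]. Psmb7, the trypsin-like site, had 145, 145 and 144 in the control IP and 155, 153 and 147 in the shLarp1 IP, a ratio of 0.07 [-0.02 to 0.16]. Its interval held 0 although its columns did not overlap.

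Psmb8, Psmb9 and Psmb10 replace the catalytic subunits in the immunoproteasome of immune cells and after interferon. Psmb8 and Psmb9 had few counts, while Psmb10 had 736 in the control IP and 817 in the shLarp1 IP. Together the 3 genes stood at 0.0046 [-0.13 to 0.14]. Psmb9 gave the highest core ratio in the IP, with 13, 15 and 16 counts in the control columns and 19, 22 and 19 in the shLarp1 columns. The columns did not overlap, but the interval of 0.30 [-0.29 to 0.89] held 0. Psmb8 gave the lowest, with 18, 31 and 30 against 38, 26 and 16 counts and overlapping columns (-0.13 [-0.60 to 0.33]).

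Among regulatory genes the ends were Psmd6, a lid subunit, and Psmd5, a chaperone of base assembly. Psmd6 had 58.6, 61.8 and 52.4 scaled CPM in the control IP and 64.5, 64.5 and 68.5 in the shLarp1 IP, with no overlap and a ratio of 0.19 [0.05 to 0.33]. Psmd5 had 13.0, 12.6 and 12.5 in the control IP and 8.70, 9.48 and 7.92 in the shLarp1 IP, all 3 shLarp1 columns lower (-0.55 [-0.89 to -0.21]). The 6 ATPases summed to -0.06 [-0.10 to -0.01] and the lid to 0.02 [-0.04 to 0.07].

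In the input, subunit mRNA of both particles stood lower after shLarp1, and 1 regulatory member, the ATPase Psmc6, passed the 1.5-fold rule. Over all genes 0.171% were called higher and 1.01% lower. All subunits together went from 6424 to 5969 counts, a log2 ratio of -0.30 [-0.36 to -0.25], while the median gene was at -0.14. This sum stayed below 0 under the 5 scalings run, from -0.53 to -0.07. Leaving out any 1 of the 6 input columns brought it to between -0.10 and -0.06, and raised the summed IP ratio from 0.08 to 0.16. The core sum was -0.28 [-0.34 to -0.23] and the regulatory sum -0.39 [-0.51 to -0.28], and their difference of 0.11 [-0.02 to 0.24] held 0. Without the immunoproteasome members and the 3 assembly chaperones named Psmd the difference was 0.18 [0.04 to 0.31], which did not hold 0. Those chaperones went from 113 to 144 counts. Whether the particles differed in the input thus depended on the members taken. In the input comparison the summed neuron markers stood at -0.68 and the summed leukocyte markers at -0.49. By the median gene, neuron markers were at -0.28, leukocyte markers at -0.20 and the subunits at -0.32. Of the 12 neuron markers 5 had intervals wholly below 0 and 0 wholly above, and of 7 leukocyte markers tested 1 and 0. The part of these cells in the subunits' values was not tested. In such bulk RNA fewer cells of a type and less RNA per cell cannot be told apart.

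An interval wholly below 0 was found for 20 of the 37 members and wholly above 0 for none, where 9.19% of all genes lay below and 8.97% above. Of the narrower set of 6807 genes 677 lay below and 204 above. These shares are not matched for depth, and a gene with few counts seldom clears 0. In each input group 30 of the 37 members had at least 30 summed counts, as did 2131 genes in the control input and 2136 in the shLarp1 input. The 20 members below 0 were all 7 members of the alpha ring, 4 of 7 of the beta ring, Psmb9, 4 of 6 ATPases, Psmd4 and 3 of 8 lid members. That count depended on the scaling: with DESeq2 size factors 8 members lay wholly below 0 and 3 wholly above, where 4.53% and 13.3% of all genes did, and of the alpha ring only Psma1 and Psma5 lay below. The counts were also 8 below and 3 above with a control IP column as TMM reference (4.26% and 13.8% of all genes). They were 10 and 3 with upper-quartile factors (5.46% and 12%) and 24 and 0 with total counts (15.8% and 4.8%). Psma1, Psma5, Psmc1, Psmc4, Psmc5, Psmc6, Psmd4 and Psmd8 lay wholly below 0 under all 5 scalings. Every core member had a ratio below 0, but 4 of the 17 (1 of them in the alpha ring) were above it when TMM took a control IP column as reference, 2 with DESeq2 size factors and 1 with upper-quartile factors. Without overlap of columns, 11 core and 8 regulatory members were lower after shLarp1 and 2 regulatory members higher (Psmd3 and Psmd5), where 13.8% of all genes were lower and 10.4% higher. Alpha ring minus beta ring was -0.16 [-0.28 to -0.04], which no scaling can move.

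Psmc6 had 16, 19 and 12 counts in the control input columns and 5, 6 and 4 in the shLarp1 input columns. The groups did not overlap, and the log2 ratio was -1.85 [-2.79 to -0.98], a 3.59-fold fall that rests on 47 against 15 counts. Without control input column 2 the ratio was -1.47 and without shLarp1 input column 3 it was -1.49, and in both cases the call was lost. In the IP its scaled CPM were 53.0, 49.9 and 50.6 with the control virus and 42.7, 50.6 and 47.1 with shLarp1, overlapping (-0.13 [-0.28 to 0.03]).

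Psmc1, Psmc4 and Psmc5, ATPases of the same ring, were also lower in the input without passing the 1.5-fold rule. Psmc1 had 83.0, 90.3 and 109 scaled CPM in the control input and 42.5, 42.0 and 55.6 in the shLarp1 input (-1.01 [-1.47 to -0.56]). For Psmc4 the values were 65.9, 61.0 and 60.5 against 27.6, 35.7 and 32.1 (-0.97 [-1.54 to -0.42]). Psmc5 had 117, 100.02 and 116 against 61.6, 61.0 and 44.9 (-0.99 [-1.41 to -0.58]), and it was called lower when any 1 IP column was left out (-1.007 to -1.004). In each of these 3 genes every shLarp1 column lay below every control column. Psmc2 stood apart from its ring, with 176, 132 and 145 in the control input and 176, 191 and 145 in the shLarp1 input, overlapping (0.18 [-0.10 to 0.47]). Psmc3 had 43.9, 48.8 and 50.8 against 36.1, 37.8 and 42.7 without overlap of columns, but the interval held 0 (-0.30 [-0.86 to 0.26]).

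In the alpha ring Psma1 had the lowest ratio. Its scaled CPM were 95.2, 92.7 and 109 in the control input and 55.2, 46.2 and 47.0 in the shLarp1 input, without overlap (-0.9997 [-1.44 to -0.56]). Psma5 had 139, 181 and 157 against 95.6, 92.5 and 96.2, also without overlap (-0.75 [-1.07 to -0.42]). The catalytic subunits lay nearer 0. Psmb6 had the highest input ratio among core members, with 576, 642 and 627 in the control input and 546, 591 and 571 in the shLarp1 input, overlapping (-0.11 [-0.26 to 0.03]). Psmb5 had 283, 276 and 244 against 246, 166 and 237 (-0.31 [-0.54 to -0.08]), and Psmb7 151, 85.4 and 89.6 against 95.6, 77.8 and 98.3 (-0.26 [-0.63 to 0.10]). The columns of both overlapped. Psmb9 had 2, 5 and 4 counts in the control input and 1, 0 and 2 in the shLarp1 input, and Psmb8 5, 2 and 2 against 3, 3 and 2, too few to place either.

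At the other end Psmd5 had 41.5, 46.4 and 58.1 scaled CPM in the control input and 65.9, 63.1 and 68.4 in the shLarp1 input. All 3 shLarp1 columns were higher, but the interval of 0.43 [-0.05 to 0.93] held 0. It was the single subunit gene in the class of genes whose mean log2 IP-to-input ratio was below -2. Psmd3, a lid subunit, had 0, 2 and 2 counts in the control input and 4, 4 and 4 in the shLarp1 input, and the interval of its ratio was wide (1.39 [-0.34 to 3.48]).

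**Figure D2:**
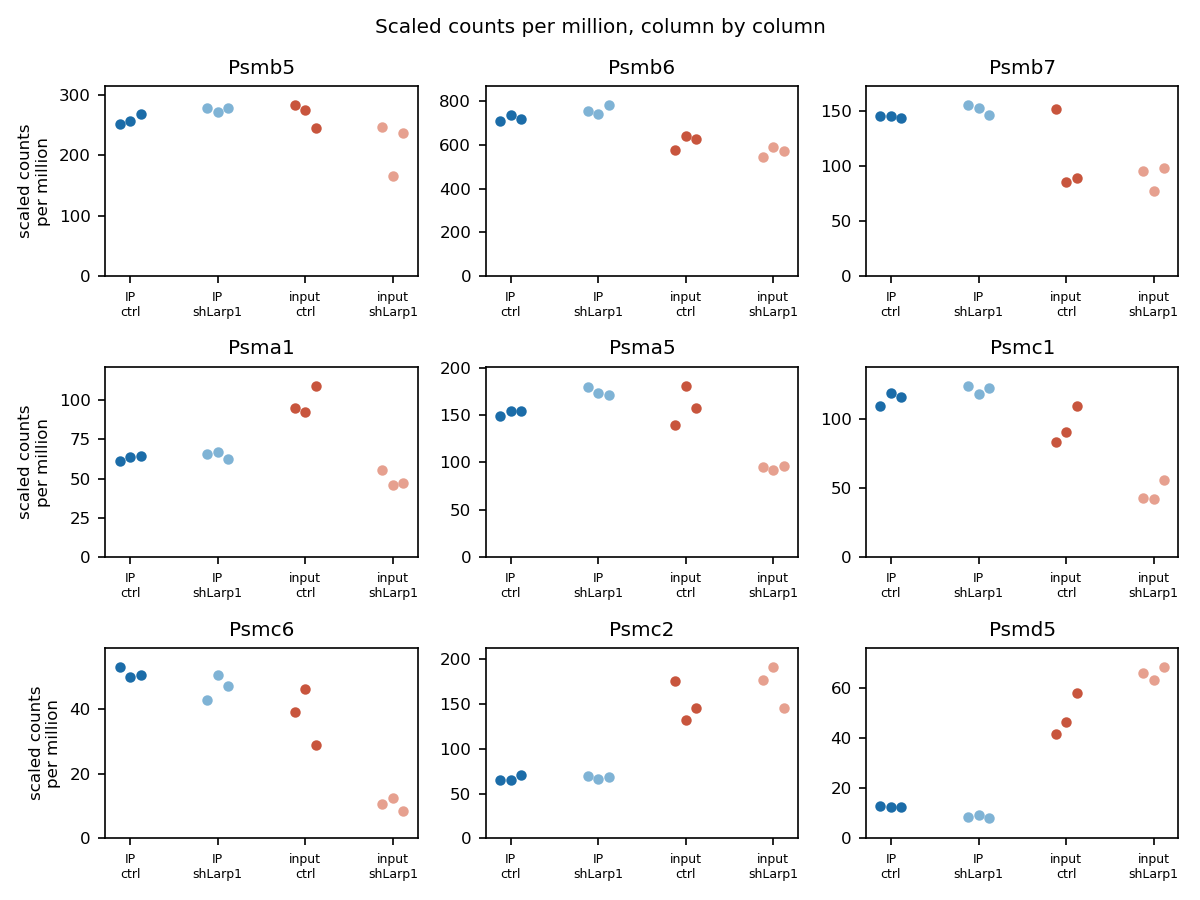
Scaled CPM of 9 subunit genes in each of the 12 columns, from 0 upward, with 1 point per column and a scale of its own in each panel. Psma1, Psma5, Psmc1 and Psmc6 have lower shLarp1 than control input columns with IP log2 ratios between -0.13 and 0.20, and Psmc2 and Psmd5 are higher in input than in IP.

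Whether the ratio of shLarp1 over control differed between IP and input was read from the IP ratio minus the input ratio. For 4 members this difference was called higher: Psma1 at 1.04 [0.59 to 1.48], Psma5 at 0.94 [0.62 to 1.27], Psmc1 at 1.09 [0.64 to 1.53] and Psmc6 at 1.69 [0.84 to 2.53]. None was called lower, and over all genes 1.39% were called higher and 5.57% lower. Of the narrower set of 6807 genes 98 were called higher and 61 lower. In the IP these 4 members stood at 0.04, 0.20, 0.08 and -0.13, so most of each difference lay in the input. Psma1 had 61.1, 64.1 and 64.2 scaled CPM in the control IP and 65.5, 66.9 and 62.6 in the shLarp1 IP, overlapping. Psma5 had 149, 154 and 154 against 179, 173 and 171, higher in every shLarp1 column. Psmc1 had 109, 118 and 115 against 123, 117 and 122, overlapping.

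These calls were not stable. Leaving out any 1 of the 6 input columns ended the calls of Psma1 (0.82 to 0.98), Psma5 (0.71 to 0.90) and Psmc1 (0.83 to 1.08). That of Psmc6 ended without control input column 2 (1.40), shLarp1 input column 1 (1.52) or shLarp1 input column 3 (1.39). DESeq2 size factors, or a control IP column as TMM reference, ended all of them but that of Psmc6. Upper-quartile factors ended that of Psma1 (1.02). Psmd5 was called lower with DESeq2 size factors (-1.18) and without control input column 3 (-1.26). Over all members 19 intervals lay above 0 and 1 (Psmd5) below, where 9.87% of all genes lay above and 11.8% below. Of the narrower set of 6807 genes 733 lay above and 345 below. With DESeq2 size factors the counts were 14 and 4, where 5.58% and 15.8% of all genes lay above and below. The summed difference was 0.38 [0.33 to 0.43], with 0.39 for the core and 0.37 for the regulatory particle. Their own difference, 0.01 [-0.12 to 0.15], held 0. For the neuron markers the summed value was 0.76 and for the fibroblast markers 0.65. The median genes of these lists stood at 0.40 and 0.24, and the median subunit at 0.41. The part of these cells was not tested.

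With each virus, IP over input gives how strongly a subunit's mRNA was recovered in the IP relative to the lysate. With the control virus 5 members were called higher in the IP (Psmb4, Psmc3, Psmd1, Psmd3 and Psmd13) and 3 lower (Psmc2, Psmd5 and Psmd11), where 23% of all genes were called higher and 12.5% lower. With shLarp1 11 were called higher, 2 core and 9 regulatory, and the same 3 lower, where 25.9% of all genes were called higher and 13.1% lower. Leaving out control input column 2 ended the call of Psmd11 with the control virus (-0.80). Without that column Psmd2 was called higher (1.39), as it was without any 1 shLarp1 input column (1.09). With shLarp1, leaving out any 1 input column ended the call of Psma5 (0.79 to 0.81). Leaving out shLarp1 input column 1 ended those of Psmc4 (0.94) and Psmd2 (0.90), and column 3 those of Psmc4 (1.03) and Psmc5 (0.90). Psmd7 was called higher without shLarp1 IP column 1 (1.05). Wholly above 0 lay 14 members with the control virus and 28 with shLarp1, where 38% and 44.9% of all genes did, and wholly below lay 9 and 4, where 19.5% and 17.8% did. With upper-quartile factors 6 lay above and 18 below with the control virus, where 25.3% and 26.9% of all genes did. With shLarp1 these were 14 and 8, where 28% and 23.5% did. With total counts they were 32 and 1 with the control virus (71.4% and 9.83% of all genes). With shLarp1 they were 34 and 1 (82.1% and 10%). The direction of a summed ratio depended on the scaling too: all subunits together stood at 0.03 [-0.01 to 0.07] with the control virus, between -0.45 and 1.00 over the scalings, and at 0.41 [0.37 to 0.45] with shLarp1, between -0.09 and 1.74. The medians of all genes were 0.71 and 0.93, above both sums under each scaling.

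Relative to each other the core was recovered less in the IP than the regulatory particle. Its ratio minus the regulatory ratio was -0.26 [-0.35 to -0.17] with the control virus and -0.24 [-0.34 to -0.15] with shLarp1. In counts, the core took 76.6% of subunit counts in the control IP (exact interval 76.2 to 76.9), 78.1% in the shLarp1 IP (77.8 to 78.3), 79.6% in the control input (78.6 to 80.6) and 80.8% in the shLarp1 input (79.8 to 81.8). Core counts per regulatory count were 3.22, 3.32 and 3.25 in the control IP columns, 3.58, 3.55 and 3.54 in shLarp1 IP, 4.17, 3.91 and 3.66 in control input and 4.36, 4.07 and 4.19 in shLarp1 input. The shLarp1 IP columns lay above the control IP columns, and all input columns above all IP columns. Transcript lengths were not used, so such a ratio is one of counts and not of molecules.

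The core-to-regulatory comparison depended on a lid subunit outside the naming rule. Sem1, a small lid protein, had 17225 counts in the control IP and 1718 in the control input, more than all 20 regulatory members together. With Sem1 and the ubiquitin receptor Adrm1 added to the regulatory particle, a choice made after seeing the data, the virus difference in the IP was 0.11. The IP-over-input difference then became -0.07 with the control virus and turned to 0.22 with shLarp1. In the input the virus difference became -0.18. Sem1 itself stood at 0.01 [-0.02 to 0.04] in the IP and 0.09 [-0.00058 to 0.18] in the input.

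**Figure D3:**
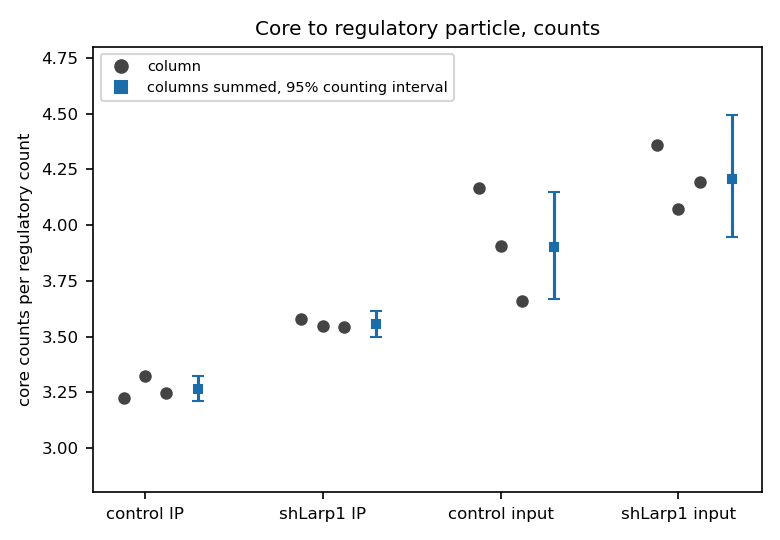
Core counts per regulatory count in each column (grey points) and in the summed columns of each group (blue squares, 95% counting interval); the axis does not start at 0. The summed ratio is 3.26 in the control IP, 3.56 in the shLarp1 IP, 3.90 in the control input and 4.21 in the shLarp1 input.

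Within the core, Psmb4, a non-catalytic beta subunit, had the highest ratio with the control virus. Its scaled CPM were 104, 112 and 106 in the control IP and 43.9, 48.8 and 48.4 in the control input (1.19 [0.81 to 1.60]). With shLarp1 they were 94.5, 103 and 106 and 40.4, 42.0 and 38.5 (1.32 [0.94 to 1.73]), and the fractions did not overlap with either virus. Psma5 was called with shLarp1, at 0.88 [0.63 to 1.14], and stood at -0.06 with the control virus. Psmb5, Psmb6 and Psmb7 were at -0.05, 0.23 and 0.41 with the control virus and at 0.35, 0.41 and 0.74 with shLarp1.

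Of the ATPases only Psmc3 was called higher with both viruses. It had 120.4, 119 and 117 scaled CPM in the control IP and 105, 109 and 106 in the shLarp1 IP, above its input columns (1.31 [0.94 to 1.71] with the control virus and 1.46 [1.07 to 1.87] with shLarp1). Psmc1, Psmc4, Psmc5 and Psmc6 were called higher with shLarp1, at 1.37, 1.11, 1.12 and 2.14, against 0.28, 0.17, 0.26 and 0.42 with the control virus. Psmc4 had 67.0, 68.4 and 75.0 in the control IP and 68.4, 67.3 and 70.7 in the shLarp1 IP, and Psmc5 128, 134 and 136 against 118, 124 and 121. Psmc2 went the other way: it had 65.2, 65.4 and 71.2 in the control IP and 70.0, 66.5 and 68.1 in the shLarp1 IP, below all its input columns (-1.17 [-1.39 to -0.93] with the control virus and -1.33 [-1.53 to -1.12] with shLarp1).

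The scaffold Psmd1 and the subunits Psmd2 and Psmd4 complete the base, and all 3 were called higher in the IP with shLarp1. Psmd1 had 60.9, 56.6 and 57.3 scaled CPM in the control IP and 54.0, 49.2 and 49.2 in the shLarp1 IP, against 31.7, 17.1 and 12.1 in the control input and 14.9, 12.6 and 23.5 in the shLarp1 input. Every IP column lay above every input column, with ratios of 1.52 [0.95 to 2.16] and 1.58 [0.997 to 2.23]. Psmd2 had 66.5, 63.9 and 63.8 in the control IP and 67.4, 64.7 and 68.9 in the shLarp1 IP, above its input columns of 24.4, 43.9 and 26.6 against 14.9, 29.4 and 38.5 (1.03 and 1.28). Psmd4, a ubiquitin receptor, had 108, 113 and 107 against 108, 125 and 119 in the IP groups and 43.9, 85.4 and 96.8 against 61.6, 37.8 and 38.5 in the inputs (0.54 and 1.35).

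Lid members spread widest. Psmd13 had 33.5, 37.0 and 33.1 scaled CPM in the control IP and 31.4, 28.8 and 36.2 in the shLarp1 IP, but 2, 5 and 4 counts in the control input and 1, 4 and 3 in the shLarp1 input (1.95 [1.10 to 2.96] and 2.50 [1.51 to 3.73]). Psmd3 had 24.0, 21.4 and 19.2 scaled CPM in the control IP and 22.5, 17.5 and 19.7 in the shLarp1 IP, and was called with the control virus, where its input held 4 counts (2.73 [1.36 to 4.62]). Psmd11 was higher in the input: it had 28.1, 25.3 and 25.7 against 26.5, 22.0 and 23.0 in the IP groups, and 56.1, 80.5 and 38.7 against 63.7, 56.8 and 98.3 in the inputs (-1.15 [-1.52 to -0.76] and -1.61 [-1.93 to -1.28]). Its columns did not overlap between the fractions with either virus. Psmd6 had 31.7, 48.8 and 46.0 in the control input and 27.6, 37.8 and 38.5 in the shLarp1 input. The deubiquitinase Psmd14 stood at 0.41 and 0.92.

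Psmd5 had the lowest ratio of all 37, at -1.93 [-2.37 to -1.48] with the control virus and -2.92 [-3.31 to -2.52] with shLarp1, and all its IP columns lay below all its input columns. The other assembly chaperones, Psmd9 and Psmd10, stood at 0.13 and 0.05 with the control virus and 0.84 and 0.06 with shLarp1.

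**Figure D4:**
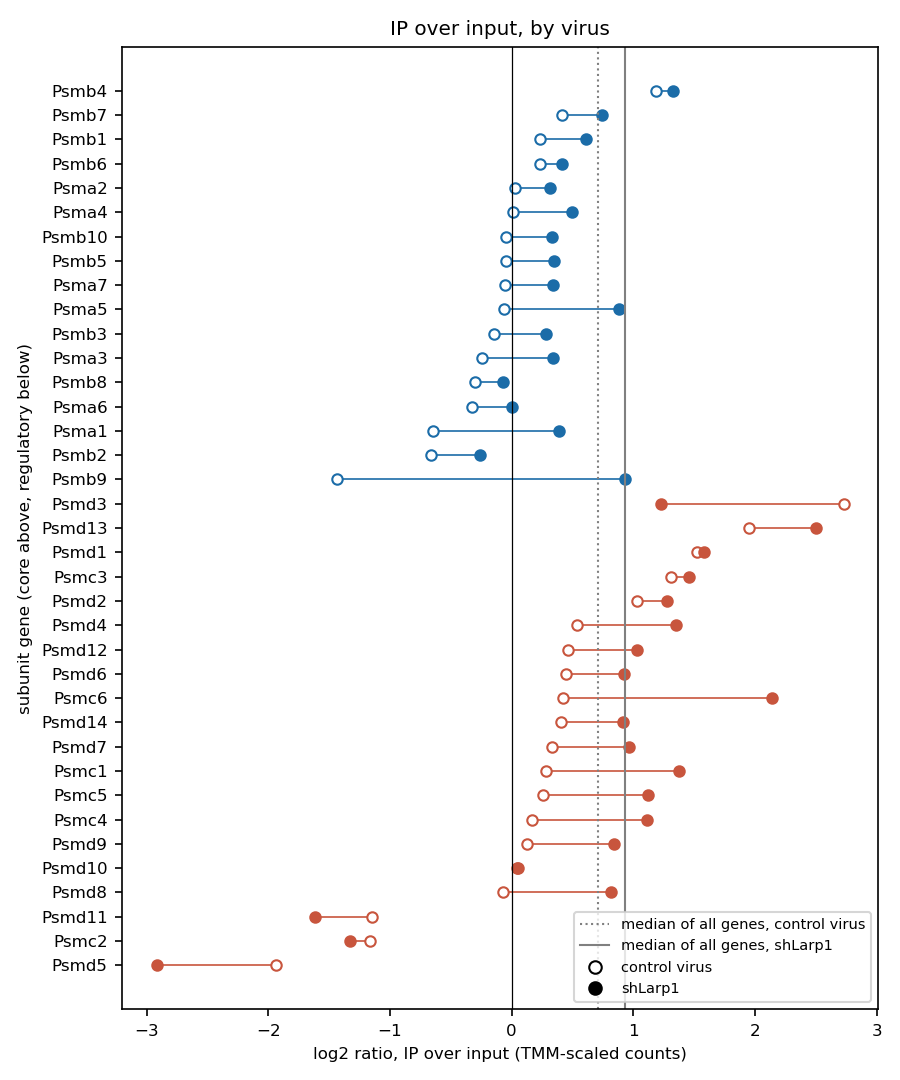
Log2 ratio of IP over input for each subunit gene with the control virus (open circles) and shLarp1 (filled), core in blue above and regulatory particle in red below, with vertical lines at the medians of all genes (0.71 and 0.93). Most core genes lie left of the medians; Psmd5, Psmc2 and Psmd11 lie below -1 with both viruses.

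Of 30 other genes of the pathway 29 were matched in the table, and none of them was called in the IP, the input or the difference of the fractions. In the IP 6 lay wholly above 0 and 4 wholly below, and in the input 1 above and 3 below, where 13.4% and 29.6% of all genes lay above and below in the IP and 8.97% and 9.19% in the input. The core assembly chaperone Pomp stood near the core sum, with 0.10 [0.05 to 0.14] in the IP and -0.25 [-0.41 to -0.09] in the input. The activators Psme3 and Psme4 lay above 0 in the IP (0.41 [0.13 to 0.70] and 0.40 [0.06 to 0.74]), as did the deubiquitinase Uchl5 (0.42). Below 0 were the chaperone Psmg1 (-0.75) and Ddi2 (-0.79), the protease that activates Nfe2l1. Nfe2l1 itself went from 515 to 597 counts in the IP (0.06 [-0.11 to 0.23]) and from 25 to 13 in the input (-1.14 [-2.23 to -0.12]).

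Of IP over input, 7 of the 29 were called higher and 1 lower with the control virus, and 9 higher and 1 lower with shLarp1. Of all genes 23% were called higher and 12.5% lower with the control virus, and 25.9% and 13.1% with shLarp1, and nothing is read from the count of higher calls. The lower gene was Ngly1, the glycanase that processes Nfe2l1, at -3.01 [-3.56 to -2.46] and -3.68 [-4.14 to -3.23]. The proteasome-bound deubiquitinase Usp14 was called higher with both viruses (3.09 [1.52 to 5.37] and 1.72 [0.73 to 2.95]). Its inputs held only 3 counts with the control virus and 8 with shLarp1. The shuttle factor Rad23b was also called higher with both (1.55 [0.85 to 2.34] and 1.39 [0.72 to 2.16]), on 17 and 18 input counts.

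Set against other large complexes, the core stood above the chaperonin TRiC, which folds actin and tubulin (8 genes), in the IP virus comparison by 0.23 [0.18 to 0.28] and the regulatory particle by 0.10 [0.05 to 0.16]. In the input the core minus TRiC was -0.21 [-0.44 to 0.01], which held 0, and regulatory minus TRiC was -0.32 [-0.57 to -0.08]. Of IP over input, core minus TRiC was -0.97 [-1.14 to -0.81] with the control virus and -0.53 [-0.69 to -0.37] with shLarp1. Regulatory minus TRiC was -0.72 [-0.90 to -0.54] and -0.29 [-0.46 to -0.11]. The TRiC sum leans on Cct6a in the input, with 105 of 327 counts in the control input and 155 of 358 in the shLarp1 input. The input ratio of Cct6a was 0.36, where the median of the 8 TRiC genes was -0.33 and that of the regulatory members -0.57. Differences from TRiC that use the input therefore depend on this gene. The COP9 signalosome, a relative of the lid (10 genes), had 1 member called lower in the input, Cops6 at -1.21 [-1.74 to -0.70]. Its summed counts were mostly those of 1 small subunit, Cops9 (18110 of 21198 in the control IP), so its members were read singly. In the IP their median ratio was 0.09, with 6 of 10 above 0, where the core median was also 0.09 and the regulatory median -0.03. Of the 10 COP9 intervals in the IP 8 held 0, 1 lay wholly above it and 1 below. By this median the core did not stand above COP9 in the IP. Their median input ratio was -0.68, and that of the 20 regulatory members was -0.57. Of the 10 COP9 intervals in the input 7 held 0, 2 lay wholly below it (Cops5 and Cops6) and 1 above (Cops9). Those 7 genes had only 4 to 22 counts per input group, so the COP9 input median is loosely set.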

How the data were processed

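RNA of 12 samples was made into libraries with a cDNA-PCR barcoding kit (Oxford Nanopore), per the labels' protocols, which mention no molecular identifiers. The authors deposited estimated counts per gene in whole numbers, with no depth scaling. Per the submitters' processing notes, Salmon and minimap2 were used with GRCm39 (mm39), without versions. Any strand setting is not given in the sources used here, so reads shared by overlapping or near-identical genes cannot be assigned. Symbols were matched by identifier for 13711 of 15391 genes. The 3 columns of a group were summed (n = 1 per group). Genes were filtered with filterByExpr (minimum count 10), which left 8773, and scaled by TMM in edgeR 4.0.16 (R 4.3.3). Ratios carry exact Clopper-Pearson intervals at 95%; for differences of ratios 0.5 counts were added and the interval is a normal approximation. Genes with no count in both groups of a comparison were not tested. Intervals assume independent molecules, which PCR reads are not. No p-value is given, because none would compare the conditions. The calling rule was tested on simulated counts. Alternatives were other scalings, no filter, leaving out each column, edgeR's quasi-likelihood test and DESeq2 1.42.0 on the 12 columns, and other sets of members. The members, gene lists, motif and tests were chosen with earlier results of these data known. Values of every column are given for called members, Psmb5 to Psmb7 and the highest and lowest member of each particle in both virus comparisons, among those with at least 100 summed counts in the IP or 20 in the input. Of the other pathway genes, those named were chosen after their values were seen. Paaf1 was not matched.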

Additional observations from a re-analysis of the deposited data

Results flagged for a closer look

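For 4 subunit genes the ratio of shLarp1 over control differed between the IP and the input libraries: the whole interval of the IP ratio minus the input ratio lay beyond 1.5-fold. Over all genes 1.39% were called higher in this difference and 5.57% lower. Of the narrower set of 6807 genes 98 were called higher and 61 lower. The log2 difference was 1.04 for the alpha subunit Psma1 and 0.94 for the alpha subunit Psma5. It was 1.09 for the ATPase Psmc1 and 1.69 for the ATPase Psmc6. In the input Psma1 went from 122 to 70 counts, Psma5 from 196 to 134, Psmc1 from 116 to 66 and Psmc6 from 47 to 15. Leaving out any 1 input column ended the calls of Psma1, Psma5 and Psmc1, and leaving out any of 3 input columns that of Psmc6. DESeq2 size factors or a control IP column as TMM reference ended all but that of Psmc6. With 1 sample per group the intervals cover counting error only.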

How the results depend on the processing

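Called members (main values 0 in the IP, 1 in the input, 4 in the difference of the fractions, 8 in IP over input with the control virus and 11 higher plus 3 lower with shLarp1) moved most with the scaling and the rule. With DESeq2 size factors the difference gave 2 (Psmc6 higher, Psmd5 lower), and with a control IP column as TMM reference 1. Total counts gave 7 in the input, 12 in the difference, 25 in IP over input with the control virus and 34 with shLarp1. With total counts the median gene itself stood at 1.68 and 2.26 in those 2 IP-over-input comparisons. Upper-quartile factors gave 6 in IP over input with shLarp1. Shares of all genes called under these scalings are not given here, so nothing is read from these counts. An interval merely past 0 gave 15, 20, 20, 23 and 32 in the order of the main values. Of all genes 13.4% lay above and 29.6% below 0 in the IP, 8.97% and 9.19% in the input and 9.87% and 11.8% in the difference. In IP over input these were 38% and 19.5% with the control virus and 44.9% and 17.8% with shLarp1. Such shares of all genes include genes of very low IP-to-input ratio and are not matched for depth. On the 12 columns as replicates, adjusted p under 0.05, edgeR's quasi-likelihood test called 11, 10, 15, 20 and 32 members, the same with the replicate number as a block 11, 10, 15, 18 and 32, and DESeq2 7, 8, 8, 22 and 30. In the IP edgeR's 11 were 8 higher and 3 lower (6.79% and 21% of all genes), and DESeq2's 7 were 6 higher and 1 lower (4.38% and 17.1%). Shares of all genes higher and lower with edgeR were 5.29% and 3.59% in the input and 3.8% and 7.32% in the difference. In IP over input they were 37% and 18.5% with the control virus and 44% and 17.2% with shLarp1. With DESeq2 these 4 pairs were 8.47% and 1.68%, 1.85% and 9.44%, 35.2% and 17%, and 34.8% and 18.1%. The replicate numbers did not pair the samples: 12 correlations of same-numbered columns ran from -0.05 to 0.04, and 2 were the best for their number. The sum over all subunits was, with DESeq2 size factors, -0.092 in the input, 0.18 in the difference, 0.14 in IP over input with the control virus and 0.31 with shLarp1. With total counts it was 0.21 in the IP, -0.53, 0.74, 1.00 and 1.74. With upper-quartile factors it was 0.20 in the IP, -0.16 in the input, -0.45 in IP over input with the control virus and, reversed, -0.092 with shLarp1. With the other TMM reference it was 0.15, -0.069, 0.22 and, in IP over input with shLarp1, 0.23. Without a filter IP over input was 0.20 and 0.57. With Sem1 and Adrm1 it was -0.21 in the input, 0.28 in the difference and 0.27 in IP over input with shLarp1. The median of members in place of the sum gave 0.042 in the IP and 0.13 and 0.82 in IP over input. Median genes shifted by up to 0.13 in the IP, 0.24 in the input and 1.33 in IP over input. Without immunoproteasome and chaperone members core minus regulatory became 0.18 [0.04 to 0.31] in the input and -0.37 in IP over input with shLarp1. With Sem1 and Adrm1 it was -0.18 in the input, 0.29 in the difference, -0.069 in IP over input with the control virus and, reversed, 0.22 with shLarp1. From medians it was 0.26 in the input, -0.12 in the difference and -0.43 and -0.72 in IP over input. With total counts some members went from a ratio below 0 in IP over input to a call of higher. They were Psma5 (0.90), Psma7 (0.91), Psmb3 (0.82), Psmb5 (0.92) and Psmd8 (0.89) with the control virus and Psmb2 (1.07) with shLarp1. The main intervals of Psma5, Psma7, Psmb5 and Psmd8 had held 0. Without regard to 1.5-fold, intervals turned from one side of 0 to the other in IP over input only. With total counts these were 5 members with the control virus (Psma1, Psma3, Psma6, Psmb2 and Psmb3) and 1 with shLarp1 (Psmb2). With upper-quartile factors they were 2 (Psmb1 and Psmb6, to below 0) and 3 (Psma2, Psma7 and Psmb3, to below 0). Leaving out 1 column gave 0 to 0 called members in the IP, 0 to 2 in the input, 0 to 4 in the difference, 8 to 9 in IP over input with the control virus and 11 to 15 with shLarp1. Sums ranged from 0.075 to 0.16, -0.32 to -0.057, 0.22 to 0.41, 0.028 to 0.10 and 0.30 to 0.45. Core minus regulatory ranged from 0.11 to 0.14, 0.06 to 0.16, -0.03 to 0.06, -0.30 to -0.21 and -0.27 to -0.22. Where a cause is not built into the alternative, the cause was not tested. Depth limits the single members in the input: in each input group, 30 of 37 had at least 30 summed counts.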

Other observations

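Ngly1, Psmd5, Psmc2, Psmd11 and the TRiC subunit Cct6a were taken from the lists after their values were seen. With TMM scaling they stood lower in the IP than in the input with both viruses. Total counts raise every such ratio by 0.97 with the control virus and 1.33 with shLarp1, which brings Cct6a above 0. Of the 37 members 1 then lay wholly below 0 with each virus. Cct6a had 742 counts in the control IP and 105 in the control input, a log2 ratio of -0.62 [-0.91 to -0.31], where the other 7 TRiC genes had ratios above 0. With shLarp1 its ratio was -0.97 [-1.22 to -0.71]. Psmc3ip, the gene that shares its letters with the subunits, had 148 and 111 counts in the IP groups, a ratio of -0.57 [-0.93 to -0.20].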
